A study of Mus musculus with 4 samples.

Results

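The Hox genes encode homeodomain transcription factors that lie in 4 clusters, Hoxa to Hoxd, and are numbered by paralogue group from 1 to 13. They were examined here in epithelium of the embryonic mouse small intestine with and without Yy1. The members were all probe sets of the deposited value table whose platform annotation gave a single symbol made of a cluster letter and a paralogue number. This gave 48 probe sets of 33 genes, out of 45037 probe sets and 18193 genes with a single-symbol probe set. Hox genes without such a probe set were not analysed here. Many of the 48 probe sets lay at or near the lowest value of the arrays, log2 2.358, and such values have no order.

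Total RNA was measured on Affymetrix Mouse430_2 arrays, 1 array per sample. Both controls carried floxed Yy1 alleles (YY1f/f), with no Cre in their label, and both knockouts carried Yy1f/f; Shh-Cre, in which the recombinase is made from the Shh locus, a gene active in gut endoderm. All 4 samples were Epcam-selected epithelium at E15.5, taken between the proximal stomach and the distal caecum, and each pooled up to 2 embryos, with littermates as controls. No sample combined Shh-Cre with unfloxed Yy1, so the Cre allele and the missing Yy1 cannot be told apart as sources of a difference.

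Yy1, the targeted gene, was lower in the knockout on all 4 of its probe sets, with values of 8.79 and 8.82 against 7.27 and 6.81 on the brightest (-1.77, SE 0.17, limma adjusted p = 0.00209). Between 35.6% and 36.4% of probe sets on an array reached log2 4. Shh, the gene whose locus drives the Cre, had values of 7.42 and 7.38 against 5.55 and 5.36 (-1.95, SE 0.11, adjusted p = 0.000812). Epcam, the antigen used for selection, was at 11.5 on both controls and at 11.0 and 11.2 in the knockouts (-0.44, SE 0.11, adjusted p = 0.0287). With 2 arrays per genotype, precision is limited by their number.

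Along the body axis, Hox genes are switched on in the order in which they lie in their cluster, so that low paralogue numbers are active from more anterior positions and high numbers only posteriorly. In the gut they are known mainly for patterning the mesoderm along its length, and group 13 genes act in the hindgut. Their proteins bind DNA with cofactors of the Pbx and Meis families. Cdx factors and retinoic acid act upstream of the clusters, and Polycomb and trithorax complexes keep them off or on. Yy1 is the mammalian relative of Drosophila Pho, a DNA-binding Polycomb protein.

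The authors' deposited table of changed probe sets listed 6 Hox genes. The promoters of the 3 of them with an entry in RefSeq's promoter table (GRCm38.p6) are shown because of that listing. Whether these genes are regulated together was not tested. The stretches are the 250 bases before the annotated start, written 5′ to 3′ on the gene's strand. Capitals mark a match to any of 4 motifs searched on both strands: AANATGGC (YY1), TTTATNG (CDX), TGACAG (MEIS) and TGATTNAT (HOX-PBX). They lie at chr6:52213068-52213317 (minus strand, Hoxa3), chr6:52204588-52204837 (minus strand, Hoxa5) and chr11:96318017-96318266 (plus strand, Hoxb4).
Hoxa3: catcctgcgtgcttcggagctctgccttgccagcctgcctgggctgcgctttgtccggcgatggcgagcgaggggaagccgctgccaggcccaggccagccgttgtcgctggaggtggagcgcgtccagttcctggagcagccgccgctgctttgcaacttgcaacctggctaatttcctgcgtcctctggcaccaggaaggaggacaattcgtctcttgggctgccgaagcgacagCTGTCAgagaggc
Hoxa5: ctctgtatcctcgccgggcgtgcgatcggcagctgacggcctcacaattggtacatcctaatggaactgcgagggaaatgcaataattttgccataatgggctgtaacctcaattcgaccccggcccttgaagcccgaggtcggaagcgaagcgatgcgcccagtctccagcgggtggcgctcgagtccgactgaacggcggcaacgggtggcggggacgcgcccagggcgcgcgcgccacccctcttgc
Hoxb4: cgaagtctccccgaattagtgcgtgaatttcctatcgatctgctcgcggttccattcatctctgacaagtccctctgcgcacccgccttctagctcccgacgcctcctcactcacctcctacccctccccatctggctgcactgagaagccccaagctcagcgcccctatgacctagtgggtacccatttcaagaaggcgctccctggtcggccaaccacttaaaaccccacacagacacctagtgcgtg
The Hoxa3 stretch held 1 match, to the MEIS motif between 13 and 8 bases before the start, and no motifs overlapped. The stretches of Hoxa5 and Hoxb4 held none of these letter strings. In all, 19 of the 33 genes had an entry, and with 3 further Hox genes there were 24 stretches of 22 genes. The YY1 string was in 1 of the 24, that of Hoxd10, against 3.91% of all 32851 stretches, and the CDX string was in 2 (Hoxb8 and Hoxd4) against 9.81%. The MEIS string was in 2 (Hoxa2 and Hoxa3) against 15.9% and the HOX-PBX string in 2 (Hoxa2 and Hoxd11) against 2.82%. The Hox stretches had a median GC content of 58.6% against 52.4% for all genes, and a median of 12.5 CG dinucleotides against 6. Which start site each probe set reads was not established.

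On the control arrays, 1 of the 48 probe sets had a log2 value of at least 4 on both arrays, the level used as the minimum for testing, against 34.8% of all probe sets. It belonged to Hoxa3. On the knockout arrays 4 probe sets of 4 genes reached that level on both arrays, those of Hoxa3, Hoxb4, Hoxb5 and Hoxb6, against 35.1% of all probe sets. By cluster, the knockout numbers were 1 of 16 Hoxa probe sets, 3 of 11 Hoxb probe sets, 0 of 11 Hoxc and 0 of 10 Hoxd probe sets. By paralogue number, 4 of the 22 probe sets of groups 3 to 6 and 0 of the 22 of groups 7 to 13 were at that level on both knockout arrays. Groups 1 and 2 had 4 probe sets, also none.

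**Figure D1:**
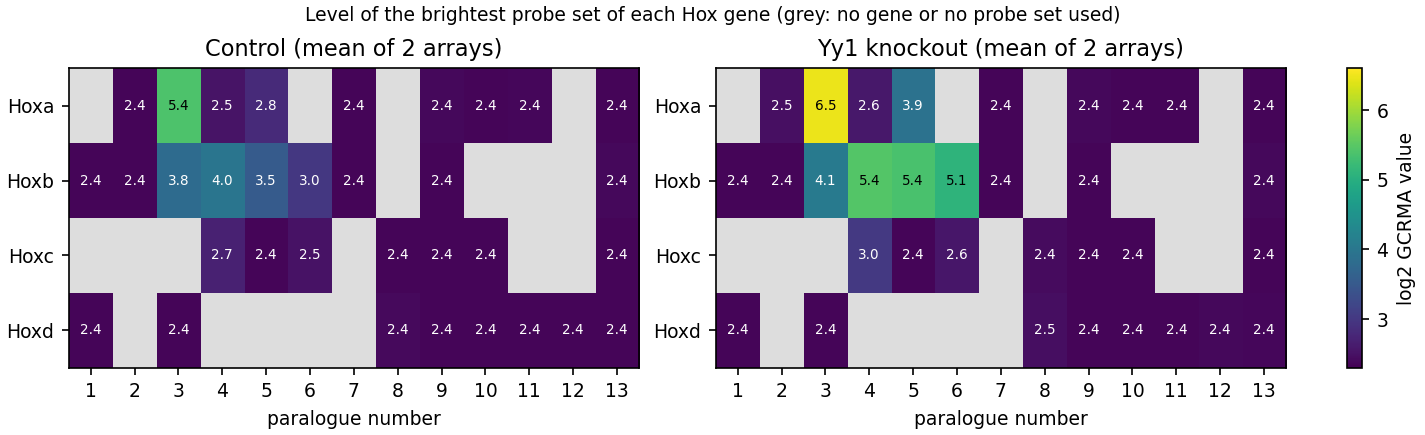
Mean log2 GCRMA value of the brightest probe set of each Hox gene, by cluster (rows) and paralogue number (columns), over the 2 control arrays (left) and the 2 knockout arrays (right); grey cells have no gene or no probe set used. Means over log2 3 in either genotype are seen in Hoxa3, Hoxa5, Hoxb3 to Hoxb6 and, at 3.01, Hoxc4, and levels of different probe sets are not comparable with each other.

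The members at or near the lowest value were the large majority. In 37 of the 48 probe sets no array reached log2 3, and in 31 the 4 arrays lay within 0.1 of each other. All 22 probe sets of groups 7 to 13 were among the 37, with a highest value of 2.51 (Hoxd8). The group 13 genes Hoxa13, Hoxb13, Hoxc13 and Hoxd13, which act in the hindgut, stayed at 2.41 or lower on every array. All 10 Hoxd probe sets stayed under log2 3 as well. In the Hoxc cluster only Hoxc4 passed log2 3, with 3.01 and 2.38 in the controls, against 3.01 on both knockout arrays, so that its groups overlapped. At such values a difference was not detectable on these arrays, and no absence is shown.

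Of the 33 Hox genes 4 could be tested, 1 probe set each, and all 4 rose in the knockout. Over all 8626 genes tested 17.9% rose and 21.7% fell, but nothing is read from that contrast, since all but Hoxa3 met the minimum of log2 4 on at least 2 arrays only with a knockout array. With no filter on low values no Hox gene passed (limma adjusted p = 0.107 to 0.211 for these 4). At an unadjusted p under 0.05 in that limma fit, 5 of the 33 were higher and 0 lower. Nothing is read from those counts: genes at the lowest value could not fall, and the share of all genes was not computed. Hoxa3, which shapes pharyngeal organs such as the thymus, had log2 values of 5.37 and 5.42 in the controls, against 6.31 and 6.63 in the knockouts on its brightest probe set (1452421_at). The groups did not overlap, and the change was 1.08 (SE 0.14, 2.11-fold, limma adjusted p = 0.00439). Of the genes at log2 4 or more on both control arrays, as Hoxa3 was, 14.3% rose and 23.2% fell.

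Hoxb4, known for its effect on blood stem cell expansion, had values of 3.91 and 4.03 in the controls, against 5.10 and 5.79 in the knockouts (1460379_at). The knockouts were both above the controls but 0.69 apart, and the change was 1.47 (SE 0.23, 2.78-fold, adjusted p = 0.00799). Hoxb5, which acts in the enteric nervous system through the receptor gene Ret, had values of 3.68 and 3.38 in the controls, against 5.60 and 5.14 in the knockouts (1418415_at). Its change was 1.84 (SE 0.19, 3.59-fold, adjusted p = 0.00263). Hoxb6, a gene of lateral plate mesoderm, had the largest change of the 4, from 3.05 and 2.95 in the controls to 4.88 and 5.32 in the knockouts (1451660_a_at). Its change was 2.10 (SE 0.17, 4.29-fold, adjusted p = 0.00137).

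Hoxb5 and Hoxb6 lay under the testing minimum on both controls, so that they could be tested only because the knockouts were bright, which fixed their direction. Of the 349 genes with that pattern, 93.1% rose. Hoxb4 reached the minimum on 1 control only and also needed a knockout array to be tested, which favoured a rise without fixing it. Only for Hoxa3 did testing not depend on the knockouts. The folds of Hoxb4, Hoxb5 and Hoxb6 are measured from low control values: with an offset of 16 before log2, the changes were 0.92 for Hoxb4, 1.06 for Hoxb5 and 1.07 for Hoxb6, all still past the threshold. With control 1 left out, Hoxa3 and Hoxb4 missed the threshold (limma adjusted p = 0.0549 and 0.0843). With control 2 left out, Hoxa3, Hoxb4 and Hoxb5 missed it (0.0631, 0.0867 and 0.0531). Hoxb6 passed with any 1 array left out (0.0309 to 0.0426).

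**Figure D2:**
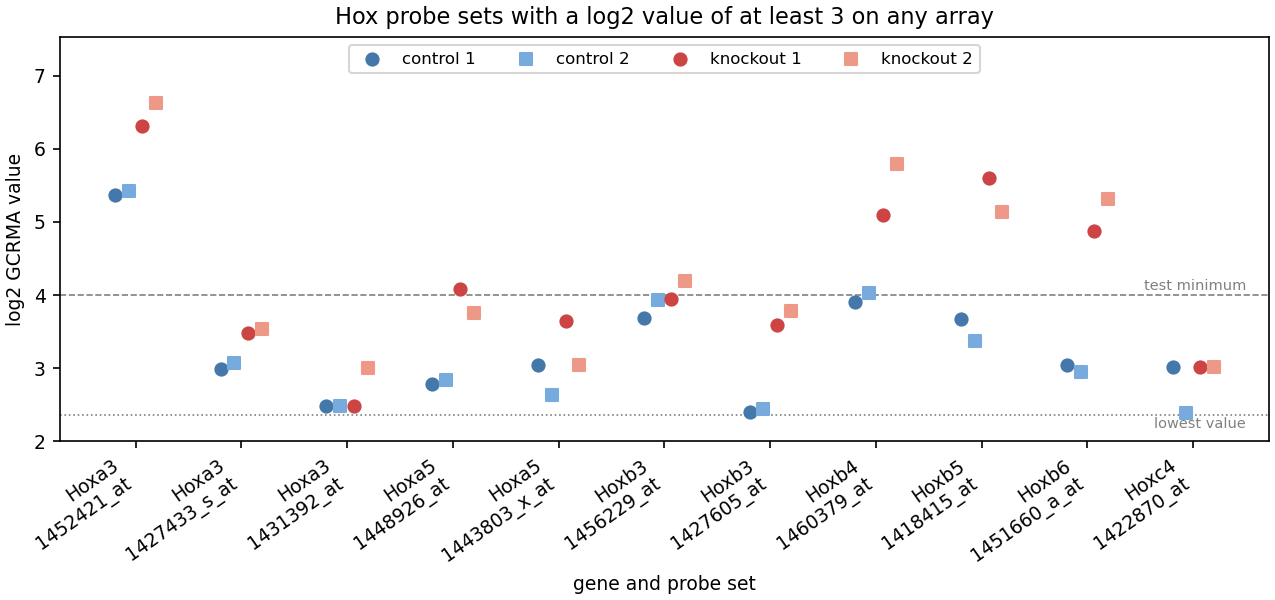
Log2 GCRMA value on each of the 4 arrays (points; circles replicate 1, squares replicate 2) for the 11 Hox probe sets that reached 3 on any array; the dashed line is the minimum for testing, log2 4, and the dotted line the lowest value of the arrays. In Hoxa3 (1452421_at), Hoxb4, Hoxb5 and Hoxb6 both knockout arrays lie above both controls and above the minimum.

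Hoxa5 and Hoxb3, of the same stretch of the clusters reached the testing minimum on 1 array only and are given without a test in the main comparison. Hoxa5, needed for lung and gut mesoderm development, had values of 2.79 and 2.84 in the controls, against 4.09 and 3.76 in the knockouts on 1448926_at. Its further probe set (1443803_x_at) had 3.05 and 2.63 in the controls, against 3.65 and 3.05 in the knockouts, where the groups met. Hoxb3, a hindbrain and pharyngeal patterning gene, had values of 2.40 and 2.44 in the controls, against 3.59 and 3.79 in the knockouts on 1427605_at. On its brighter probe set (1456229_at) the values were 3.68 and 3.94 in the controls, against 3.95 and 4.20 in the knockouts, so that the lower knockout lay just above the higher control. With the minimum set at log2 3, a choice made after seeing the data, Hoxa5 (1.10, SE 0.14, limma adjusted p = 0.0137) and Hoxb3 on 1427605_at (1.26, SE 0.11, adjusted p = 0.0081) passed. Both controls of these probe sets lay under log2 3, so that only a rise was possible there. The further probe sets, with at least 1 control over log2 3, did not pass, neither Hoxa5 on 1443803_x_at (0.51, SE 0.27, adjusted p = 0.225) nor Hoxb3 on 1456229_at (0.27, SE 0.15, adjusted p = 0.244). The authors' deposited table listed 2156 probe sets, 1010 of them higher in the knockout. It held 6 Hox probe sets, all higher: those of Hoxa3, Hoxa5, Hoxb4, Hoxb5 and Hoxb6 named above and 1427605_at of Hoxb3. Their adjusted p in the authors' deposited table ran from 0.000363 (Hoxb6) to 0.0036 (Hoxb4). The authors' label for that table reads as a limit of 1 on the log2 fold change. Controls of the listed Hoxa5, Hoxb3 and Hoxb6 probe sets lay within 1 of the lowest value, so no such fall was possible there. The shared direction is therefore not read as a result.

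Probe sets of the same gene differed in level and in size of change. Hoxa3 had 4: beside 1452421_at, 1427433_s_at had values of 2.99 and 3.07 in the controls, against 3.49 and 3.53 in the knockouts, 1431392_at had 2.49 and 2.48 against 2.49 and 3.01, and 1429398_at stayed at 2.36 on all arrays. The second Hoxb4 probe set (1451761_at) had 2.55 on both controls and 2.75 and 2.94 in the knockouts. In the RefSeq gene table the span of Hoxa3 takes in Hoxa4, Hoxa5 and Hoxa6, and that of Hoxb3 takes in Hoxb4, and which transcript a probe set measures cannot be told apart here. Over all 48 probe sets both knockout arrays lay above both controls in 12, a share near the 21.5% of all probe sets. Of the 12, 4 were under log2 3 on every array, near the lowest value. None had both knockouts below both controls, against 19.2% of all probe sets. Nothing is read from that, since most controls lay near the lowest value, with little room to fall. The knockout arrays had no common order: knockout 2 was the higher in Hoxa3, Hoxb3, Hoxb4 and Hoxb6, and knockout 1 in Hoxa5 and Hoxb5.

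Tested markers of several other cell types were higher on the same knockout arrays, while the few tested of endothelium and mesothelium were not. All 12 tested genes of the gut mesenchyme list rose, by a median of 2.25, with 6 of them under the minimum on both controls, where only a rise was possible. Over all genes tested 17.9% rose and 21.7% fell. Over the 16 genes of that list the summed level, in linear intensity units, was 805 and 666 in the controls, against 2743 and 2500 in the knockouts. The collagen gene Col1a1 went from 7.39 and 6.95 to 9.39 and 9.27, and the gut mesoderm factor Foxf1 from 2.92 and 2.88 to 5.34 and 4.94, whereas Twist1 and Barx1 stayed at 2.36 on every array. The summed level of the 33 Hox genes was 240.4 and 240.1 in the controls, against 370 and 406 in the knockouts. In 26 of the 33 no array reached log2 3, so that much of the Hox sum comes from values near the lowest. Between the knockouts, the mesenchyme, enteric neuron and glia, and erythroid sums were higher in knockout 1. The Hox, smooth muscle and leukocyte sums were higher in knockout 2. Nothing is read from that order of single arrays. Cells of a type being more frequent and more RNA per cell cannot be told apart in bulk samples.

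All 7 tested smooth muscle genes rose, Cnn1 from controls under the minimum (median 3.25, summed level 392 and 248 against 2889 and 2923), as did all 6 tested leukocyte genes (median 1.95, 131.7 and 115 against 398 and 453), 3 of which were under the minimum on both controls. Of the 9 enteric neuron and glia genes with a probe set, the 1 tested, the endothelin receptor gene Ednrb, rose by 1.96 from controls under the minimum, and the summed level was 62.4 and 59.7 against 124 and 94.1. Ret, a known target of Hoxb5, had values of 3.37 and 3.15 in the controls, against 4.25 and 3.98 in the knockouts, and the glial marker Gfap stayed at 2.36. Both tested erythroid genes rose, 1 of them (Hba-x) from controls under the minimum (summed level 82.3 and 101 against 1037 and 920). The 4 untested ones, Hbb-bh1, Hba-a1, Alas2 and Slc4a1, stayed at 2.68 or lower on every array. The 1 tested endothelial gene, Egfl7, fell (summed level 87.4 and 76.4 against 71.9 and 65.7) with Tek at 2.36 on every array. Of 2 tested mesothelium genes Upk3b fell and Krt19, also in the general epithelium list, did not pass, while Wt1 stayed at 2.36. So few tested genes do not show whether either cell type differed. Of 12 general epithelium genes 3 rose, 3 fell and 6 did not pass (median 0.02), where 17.9% of all genes tested rose and 21.7% fell. The summed level of the epithelium list was 10227 and 10693 in the controls, against 8875 and 9428 in the knockouts. The part of any of these cell types, mesenchyme included, in the Hox changes was not tested.

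Regional genes of the gut also differed. All 3 tested genes of the gastric list rose, where 17.9% of all genes tested rose. Cldn18 and Gkn1 did so from controls under the minimum, where only a rise was possible, and Ctse rose by 0.47. The summed level of the list, 393 and 340.0 against 550 and 571, was mostly Ctse, with values of 8.31 and 8.04 against 8.62 and 8.67. The 9 untested genes stayed under the minimum on every array on their brightest probe sets, with Sox2 at 2.36. Of 2 tested genes of the proximal small intestine, Gata4 fell by 0.64 (SE 0.12, limma adjusted p = 0.0116) and Onecut2 did not pass. The 1 tested ileal gene, Osr2, did not pass (0.09, adjusted p = 0.802). The colonic genes Car1 and Aqp8 stayed under log2 2.7 on every array. Whether the dissected length of gut differed between samples was not tested.

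**Figure D3:**
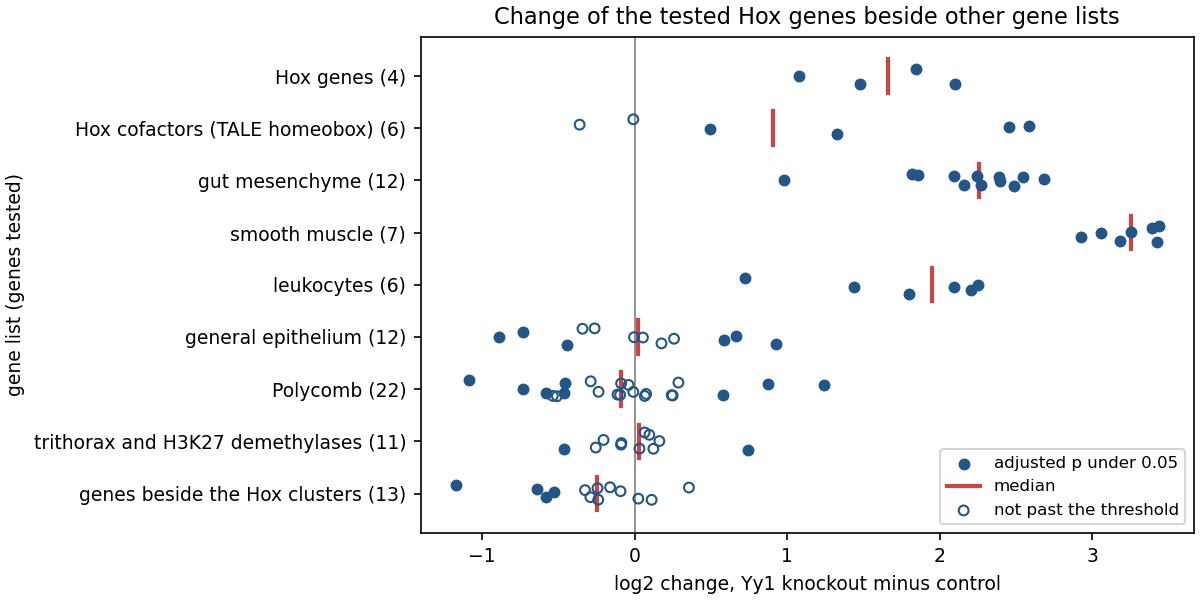
Log2 change (knockout minus control) of each tested gene, by list, with the number tested in parentheses; filled points passed at an adjusted p under 0.05, open points did not, and the red bar is the list median. The 4 Hox genes lie between 1.08 and 2.10. Other lists span that range as well: the mesenchyme genes lie between 0.98 and 2.68, the leukocyte genes between 0.72 and 2.25, and the Hox cofactors between -0.36 and 2.59.

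Of the 8 Hox cofactor genes with a single-symbol probe set, 6 were tested, 4 rose and none fell. Over all genes tested 17.9% rose and 21.7% fell. The cofactor median was 0.91 against -0.03 for all genes tested (1 was lower at an unadjusted p under 0.05 by limma). At an adjusted p under 0.01 (limma) 3 cofactors were higher, and with an offset of 16 before log2 3 were higher and 1 lower. Meis2 had values of 3.54 and 3.11 in the controls, against 5.96 and 5.87 in the knockouts, a change of 2.59 (SE 0.17, adjusted p = 0.00102). Pbx3 went from 2.87 and 2.51 to 5.28 and 5.01, a change of 2.45 (SE 0.17, adjusted p = 0.00107). Meis1 rose by 1.32 (SE 0.15, adjusted p = 0.0029) and Meis3 by 0.49 (SE 0.12, adjusted p = 0.0265). In all 4 both controls lay under the minimum, where only a rise was possible. Pbx2 had values of 6.74 and 6.71 against 6.26 and 6.47 and did not pass (-0.36, adjusted p = 0.0631).

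Cdx1 and Cdx2, known activators of Hox clusters and of intestinal identity, fell. Cdx1 had values of 6.11 and 6.55 in the controls, against 3.51 and 3.68 in the knockouts, a change of -2.74 (SE 0.17, limma adjusted p = 0.000969). Cdx2 went from 7.02 and 7.05 to 5.74 and 6.31, a change of -1.01 (SE 0.20, adjusted p = 0.0151), and Cdx4 stayed at 2.36. For Cdx1, under the minimum on both knockouts, only a fall was possible. Of the ParaHox genes, Pdx1, a factor of pancreas and duodenum, rose from 4.72 and 4.76 to 6.49 and 5.79 (1.40, SE 0.23, adjusted p = 0.00928), while Gsx1 and Gsx2 stayed at 2.37 or lower. With either control left out, 1 gene of this list was lower and 0 were higher.

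**Figure D4:**
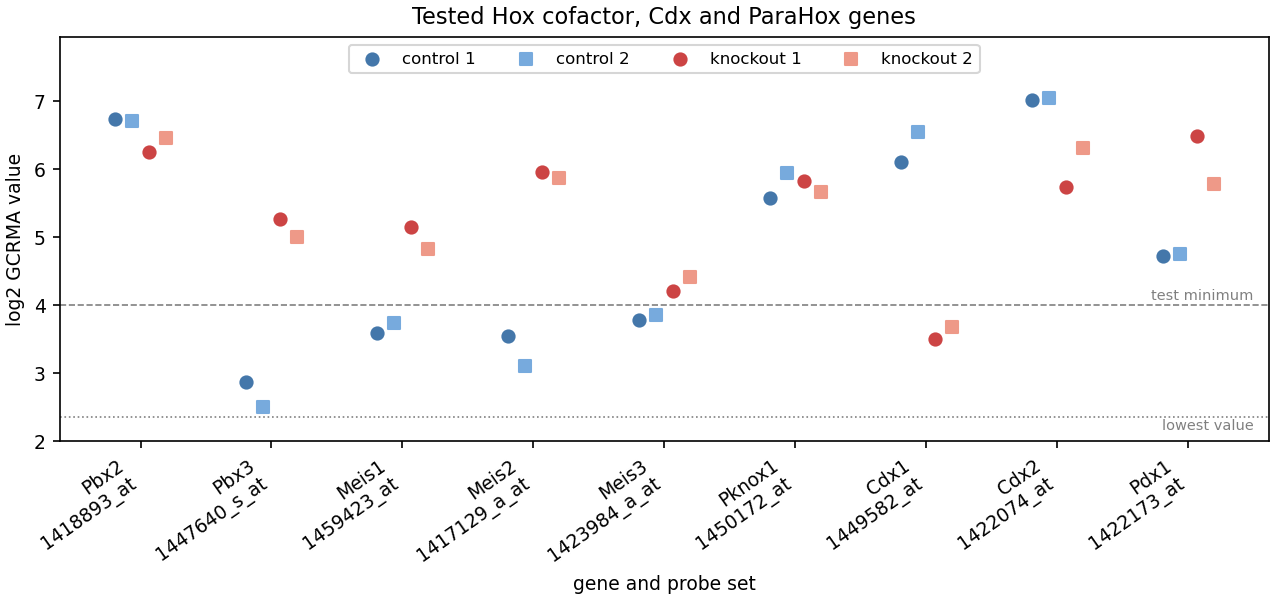
Log2 GCRMA value on each array (points; circles replicate 1, squares replicate 2) for the 6 tested Hox cofactor genes and the 3 tested Cdx and ParaHox genes; dashed line, minimum for testing; dotted line, lowest value of the arrays. Both knockouts lie above both controls in Pbx3, Meis1, Meis2, Meis3 and Pdx1, and below them in Pbx2, Cdx1 and Cdx2.

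Of 6 tested retinoic acid genes 1 rose and 2 fell, with a median of 0.08, where 17.9% of all genes rose and 21.7% fell. Aldh1a1, which makes retinoic acid, had values of 3.85 and 4.28 in the controls, against 6.07 and 6.02 in the knockouts (1.98, SE 0.17, adjusted p = 0.00148). The retinaldehyde reductase gene Dhrs3 fell by 0.80 (SE 0.14, adjusted p = 0.00965) and the receptor gene Rxra fell by 0.79 (SE 0.11, adjusted p = 0.00508). Aldh1a2, the main enzyme of retinoic acid synthesis in embryonic mesoderm, was not tested and had values of 2.54 and 2.63 against 4.62 and 3.61. The number lower was 0 without control 2 or knockout 2, and 1 without knockout 1. The degrading enzymes Cyp26a1 and Cyp26b1 stayed at 2.38 or lower.

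Of 22 tested Polycomb genes 3 rose and 5 fell, with a median of -0.09, near the 17.9% and 21.7% of all genes. The number lower was 0 with either control left out, 3 without knockout 1 and 1 without knockout 2, and the number higher was 1 without control 2. The Polyhomeotic genes Phc1 (1.24, SE 0.13, limma adjusted p = 0.00255) and Phc2 (0.87, SE 0.10, adjusted p = 0.00342) rose. The ring finger genes Pcgf5 (-1.09, SE 0.15, adjusted p = 0.00546) and Pcgf2 (-0.73, SE 0.11, adjusted p = 0.00669) and the PRC2 core gene Suz12 (-0.58, SE 0.14, adjusted p = 0.0263) fell. The methyltransferase gene Ezh2 was singled out after its values were seen and had values of 7.16 and 7.07 against 7.37 and 7.43 and did not pass (adjusted p = 0.0835). Of 11 trithorax and H3K27 demethylase genes, Kmt2a, a methyltransferase known to keep Hox genes active, rose by 0.74 (SE 0.16, adjusted p = 0.0186), and Dpy30, a subunit of its complex, fell by 0.47 (SE 0.10, adjusted p = 0.0196), and 9 did not pass, where 17.9% of all genes rose and 21.7% fell. The number higher was 0 without control 1, control 2 or knockout 2, and the number lower was 0 with any 1 array left out.

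Of the 13 tested genes that lie beside the Hox clusters none rose, also at an unadjusted p under 0.05 (limma), and 4 fell, with a median of -0.24, against 21.7% of all genes that fell. With any 1 of the 4 arrays left out, 1 of them was lower. Beside Hoxa, Skap2 fell by 0.58 (SE 0.10, adjusted p = 0.011) and Hibadh fell by 0.64 (SE 0.12, adjusted p = 0.0126). Toward Hoxb, the RNA-binding protein gene Igf2bp1 fell by 1.17 (SE 0.11, adjusted p = 0.00175), and toward Hoxd, Atf2 fell by 0.53 (SE 0.14, adjusted p = 0.0319). The flanking homeobox genes Evx1 and Evx2 stayed at 2.36 and 2.63 on every array.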

How the data were processed

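Total RNA of Epcam-selected epithelium was measured on 4 Affymetrix Mouse430_2 arrays. Values of 45101 probe sets were deposited on a log2 scale. The authors computed these log2 values with GCRMA, per the submitters' processing notes. GCRMA corrects background by probe sequence and presses unexpressed probe sets onto a floor. Its version and settings are not given in the sources used here. The authors' deposited table gave for each probe set a log2 fold change, a p-value and its adjusted value from limma, and 2 kinds of score (moderated t and log odds) that were not used, per the file headers. Its log2 fold changes run from control to knockout: they differ by at most 0.00748 from differences of group means in the deposited values.

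The manufacturer's 64 control probe sets were not used. Gene names came from the platform annotation, with 34945 probe sets of 1 symbol, 932 of several and 9160 of none listed, and symbols were updated through Entrez numbers in the RefSeq gene table (GRCm38.p6). Testing took in the 16887 probe sets with log2 4 or more on 2 or more arrays. Knockout was set against control with limma 3.58.1 (lmFit, then eBayes; R 4.3.3) with no covariate, and p-values were adjusted by Benjamini-Hochberg over all tested probe sets. The threshold was an adjusted p under 0.05, and a gene was represented by its brightest tested single-symbol probe set (8626 genes). The fit was tested on simulated data. Summed levels are sums of 2 to the power of the log2 value over the brightest probe set of each gene of a list.

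Samples of up to 2 pooled embryos are biological replicates per the series' design text, and p-values rest on how these pools differ within a genotype. The members, gene lists, tests and alternatives were chosen with earlier results of these data known. All Hox genes are named or counted, and of each other list at most 5 genes past the threshold by size of change, with Cdx1, Cdx2 and Cdx4 always; any further gene was picked out after its values were seen. Alternatives covered filters on level or spread, an offset, 2 scalings, limma's trend and robust options, leaving out each array, blocking by replicate number, averaging of probe sets and the threshold. A filter at log2 3 and a crossed block were added after seeing the data.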

Additional observations from a re-analysis of the deposited data

Results flagged for a closer look

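A probe set annotated to both Hoxb8 and Hoxb7 (1452493_s_at), left out of the comparison because it has several symbols, was above both controls on both knockout arrays. Its values were 2.36 and 2.38 in the controls, against 3.25 and 2.57 in the knockouts, a difference of 0.54 on the log2 scale. No array reached the testing minimum of log2 4, and the difference was not tested.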

How the results depend on the processing

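The 4 Hox genes kept a positive change under every alternative in which they were tested, and 60 of 69 values for single genes stayed past the threshold. For Hoxb4, Hoxb5 and Hoxb6 nothing is read from that sign. The minimum of the main comparison had fixed it for Hoxb5 and Hoxb6 and favoured it for Hoxb4. Blocking, limma's options and a stricter threshold also leave the size of a change as it was. With no filter on low values 0 Hox genes passed (limma), and over all genes 39 were higher and 48 lower, against 1545 and 1871. The limma adjusted p of the 4 Hox genes then ran from 0.107 to 0.211. That fit takes in all 45037 probe sets, of which 16887 met the minimum. With a minimum of log2 6 only Hoxa3 could be tested and 1 gene passed, with 915 higher and 1365 lower over all genes. Leaving out each array in turn gave 1 to 4 Hox genes higher, and 353 to 827 genes higher and 444 to 896 lower in all; the lone array of a genotype is then assumed to vary like the other group. At an adjusted p under 0.01 (718 genes higher and 893 lower) and against a 1.2-fold change (823 and 1036), all 4 Hox genes passed.

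The correlation of deviations between arrays with the same replicate number was -0.31, and no label says that the numbers mark a shared litter. With the replicate block 4 Hox genes were higher and 0 lower (1280 and 1587 over all genes), and with the crossed pairing 4 were higher (1591 and 1924). At a level of log2 3, 4 probe sets of 4 Hox genes reached it on both control arrays, and at log2 6, 0 did. Of 216 values for the numbers higher or lower on the other lists, 161 stayed within 1.5 times. With no filter on low values 1 Polycomb gene was lower and no other gene of those 6 lists passed.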

Other observations

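The antisense transcript gene Hoxd3os1 was the 1 gene of the clusters with a probe set lower in the knockout by more than 0.1 (1460056_at), with values of 3.26 and 3.25 in the controls, against 2.50 and 2.51 in the knockouts. Its further probe set stayed at 2.41 or lower, and neither reached the testing minimum. Probe sets of Hoxb5os and Hoxa11os stayed at 2.39 and 2.36 on every array.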
